A study of Mus musculus with 6 samples.

Results

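The circadian clock of skeletal muscle was followed through 10 transcripts of the core loop and its output: Arntl, Clock, Per1, Per2, Per3, Cry1, Nr1d1, Nr1d2, Dbp and Tef. They were taken by gene symbol, and each symbol had a single row among the 23282 rows of every count table. All 10 passed the filter on low counts and were tested among 11700 genes. The samples were gastrocnemius muscles, a fast calf muscle, from wild-type male C57/BL6J mice that were 20 months old. In the inotodiol group (3 mice) the animals were dosed by mouth with inotodiol, a triterpenoid of the chaga mushroom, at 0.35 mg/kg each day over 10 weeks. In the vehicle group (3 mice) they were given 40% polyethylene glycol, 5% Tween 80 and 0.9% saline without inotodiol. The labels give no hour of dosing or of tissue collection, no light schedule and no feeding state. Levels were therefore read mouse by mouse as well as by group, and a part of the hour of collection in any difference was not tested.

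The clock is a feedback loop of transcription. ARNTL (also called BMAL1) and CLOCK bind E-boxes and switch on the Per and Cry genes, whose proteins return to the nucleus and stop ARNTL and CLOCK. The same pair switches on Nr1d1 and Nr1d2, which encode the REV-ERB repressors that silence Arntl at ROR response elements, and the PAR bZIP factors Dbp and Tef, which act on D-boxes. Because of these delays the transcripts peak at different hours: in mouse tissues Arntl is high when Dbp and the Per genes are low, and the muscle clock is known to time fuel use, with glucose uptake and fat oxidation favoured at different times of day.

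The start regions of the members show which of these elements they carry near the promoter, so the letters of each match are shown. RefSeq windows on GRCm38.p6, from 250 bases before to 50 bases after each annotated start, were held for 9 of the 10 members, all but Per2, with 14 windows in all. Letters were searched on both strands. The E-box CACGTG was in 4 of the 14 windows (3 genes) and in 7.15% of all 32851 windows, and the E-box variant CACGTT in 2 of 14 and 4.68% of all. The ROR element core TAGGTCA was in 1 window and 2.61% of all, and the D-box TTATGTAA in 1 window, where it occurred at 2 places, and 0.938% of all. The D-box form TTACGTAA was in 0 of the 14 windows and 0.119% of all, and the cyclic AMP element TGACGTCA in 0 of the 14 and 1.79% of all. Each sequence is 30 bases on the strand of its gene, 5′ to 3′, and capitals mark the match. AACGTG is CACGTT read from the opposite strand.
Per1, E-box, chr11:69098771-69098800, plus strand: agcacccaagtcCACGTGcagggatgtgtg
Cry1, E-box, chr10:85185097-85185126, minus strand: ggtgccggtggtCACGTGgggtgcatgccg
Cry1, E-box variant, chr10:85185116-85185145, minus strand: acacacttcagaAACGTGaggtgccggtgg
Nr1d1, E-box variant, chr11:98775388-98775417, minus strand: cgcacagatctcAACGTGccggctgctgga
Tef, E-box at the first start, chr15:81802534-81802563, plus strand: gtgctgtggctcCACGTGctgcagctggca
Tef, E-box at the second start, chr15:81811264-81811293, plus strand: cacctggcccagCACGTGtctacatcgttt
Per3, D-box, chr4:151044852-151044881, minus strand: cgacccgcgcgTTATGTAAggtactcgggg
Per3, second D-box, chr4:151044805-151044834, minus strand: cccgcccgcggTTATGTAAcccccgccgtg
Arntl, ROR element, chr7:113207530-113207559, plus strand: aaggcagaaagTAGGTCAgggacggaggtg
The Per1 match began 166 bases before 1 of its 2 annotated starts, and it lies inside the gene span given for Per1 below. The Cry1 E-box began 60 and its variant 79 bases before the start, and the Nr1d1 variant 28 bases before. The Tef matches began 127 and 138 bases before its starts and the Per3 D-boxes 205 and 158 bases before. The Arntl element lay on the other side, beginning at base 31 of the transcript from its second start. A match of letters is a description of the window and not a bound site.

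The libraries also differed outside the clock genes, and the sets nearest one another did not match the treatment groups. Rn45s, the 45S ribosomal RNA precursor, took 10.2%, 9.56% and 4.33% of counts in inotodiol libraries 1 to 3 and 3.97%, 6.82% and 4.39% in vehicle libraries 1 to 3. Over all genes the chi-square per gene between libraries was 14.1 to 19.3 among inotodiol 1, inotodiol 2 and vehicle 2 and 14.8 to 18.2 among inotodiol 3, vehicle 1 and vehicle 3, against 19.2 to 46.6 between a library of the first 3 and one of the other 3. Vehicle 2 was the nearest of its 3 to the others, at 19.2 to 28.2. The chi-square used raw counts with Rn45s included, and the part of Rn45s in its values was not tested. Libraries of a group thus also differed outside the clock genes. With Rn45s removed before scaling 0 members were called.

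None of the 10 clock genes passed the test of inotodiol against vehicle muscle, edgeR's quasi-likelihood test with Benjamini-Hochberg adjustment, where 0.00% of all genes tested were called. Adjusted p ranged from 0.96 to 1.00 for the members, and 0 of 10 had an unadjusted p under 0.05, against 4.87% of all genes. DESeq2 also called 0 of the 10. The groups overlapped for all 10, whereas 10.4% of all genes tested had groups that did not overlap. Log2 fold changes, inotodiol over vehicle, lay between -0.35 and 0.13, with 4 above 0, 6 below 0 and a median of -0.09, beside a median of -0.00073 for all genes. For 7 of the 10 genes the 95% interval stayed inside a 2-fold difference in either direction, and for Per2, Per3 and Cry1 it reached past 2-fold. In bulk tissue fewer cells of a type and less RNA per cell cannot be told apart. The mice of a group differed by more than the groups did, and that spread is what the clock genes showed most clearly.

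**Figure D1:**
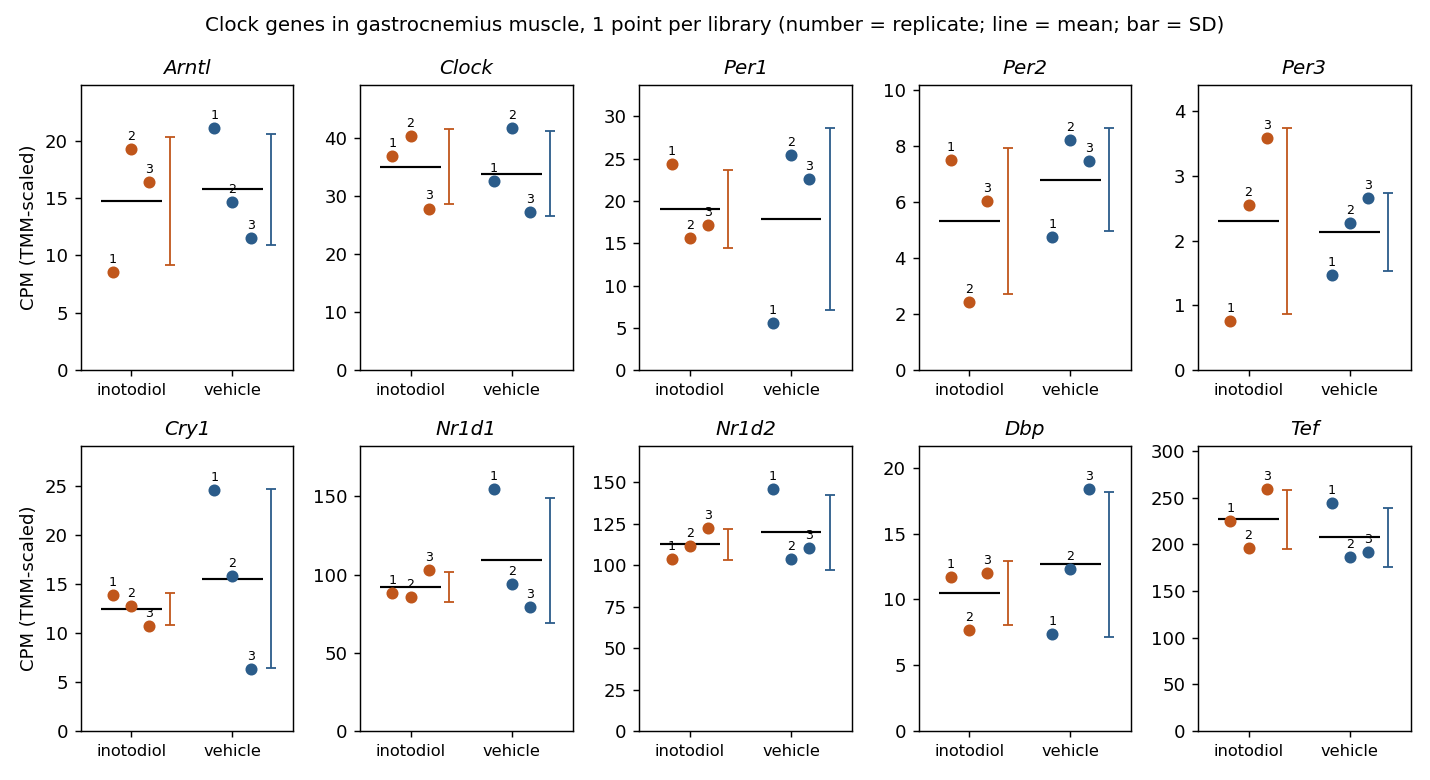
Levels of the 10 clock genes in CPM (counts scaled to library size by TMM) in each library, inotodiol left and vehicle right; numbers are replicates, lines are means and bars are SD (n = 3). The groups overlap in every panel, and vehicle 1 lies apart from the other libraries for Per1 at 5.58 CPM, Cry1 at 24.5 CPM and Nr1d1 at 155 CPM.

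Arntl, the activator whose loss stops the clock (chromosome 7, 113207465 to 113314126, plus strand), had 8.57, 19.3 and 16.4 CPM in inotodiol libraries 1 to 3, against 21.1, 14.7 and 11.5 CPM in vehicle libraries 1 to 3. The highest library, vehicle 1, stood 2.46-fold above the lowest, inotodiol 1, and the groups overlapped. The means were 14.8 ± 5.55 CPM with inotodiol and 15.8 ± 4.87 CPM with vehicle (SD, n = 3 each), a log2 fold change of -0.09 ± 0.31 (SE; 95% interval -0.77 to 0.58). Without inotodiol 1 it was 0.18 and without vehicle 1 it was 0.17. Its partner Clock (chromosome 5, 76209868 to 76304792, minus strand) was steadier. It had 36.9, 40.4 and 27.9 CPM in inotodiol libraries 1 to 3, against 32.6, 41.7 and 27.2 CPM in the vehicle libraries. Its log2 fold change was 0.05 ± 0.21 (95% interval -0.40 to 0.50), and replicate 2 was the highest and replicate 3 the lowest library in each group. It was -0.063 without inotodiol 2 and -0.085 without vehicle 3. Clock was higher in each of the libraries with more Rn45s, inotodiol 1, inotodiol 2 and vehicle 2, than in the others, and the part of that difference between libraries in its level was not tested. Npas2, which can stand in for CLOCK as the partner of ARNTL, was under the filter with 9, 0 and 2 counts in inotodiol libraries 1 to 3 and 30, 4 and 10 counts in vehicle libraries 1 to 3. Vehicle 1 was thus the highest library for Npas2 as it was for Arntl.

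Per1, the period gene that also answers acute signals such as glucocorticoids (chromosome 11, 69095217 to 69109960, plus strand), had 24.3, 15.6 and 17.1 CPM in inotodiol libraries 1 to 3, against 5.58, 25.4 and 22.6 CPM in vehicle libraries 1 to 3. A single mouse made this spread: vehicle 1 held 53 counts where the other libraries held 141 to 235. The highest library was 4.55-fold above the lowest, and 1.62-fold without vehicle 1. The group means were 19.0 ± 4.63 CPM with inotodiol and 17.8 ± 10.7 CPM with vehicle (SD, n = 3 each). The log2 fold change of 0.09 ± 0.40 had the other sign, -0.33 ± 0.25, when vehicle 1 was left out, with adjusted p of 1.00 in either run of edgeR.

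Per2, the period protein that binds cryptochrome in the repressor complex (chromosome 1, 91415982 to 91459324, minus strand), had 7.49, 2.44 and 6.05 CPM in inotodiol libraries 1 to 3, against 4.74, 8.20 and 7.46 CPM in vehicle libraries 1 to 3. Here the low mouse was inotodiol 2, with 22 counts (exact 95% Poisson interval 13.8 to 33.3, counting error only), followed by vehicle 1 with 45 (32.8 to 60.2), and the groups overlapped. The log2 fold change was -0.35 ± 0.43 (95% interval -1.27 to 0.56), and it was -0.67 without inotodiol 1 and -0.0080 without inotodiol 2. Per1 and Per2 had the same 4 highest libraries in the same order, vehicle 2, inotodiol 1, vehicle 3 and inotodiol 3. For Per2 the Poisson intervals of inotodiol 1 (69 counts, 53.7 to 87.3) and vehicle 3 (76 counts, 59.9 to 95.1) overlapped. Their order for Per2 is therefore within counting error. For Per1, vehicle 2, inotodiol 1 and vehicle 3 held 235, 224 and 230 counts, and their order is within counting error too. Per3, the period gene whose loss leaves mouse rhythms nearly intact (chromosome 4, 151003652 to 151044665, minus strand), had the fewest reads of the 10, with 7, 23 and 35 counts in inotodiol libraries 1 to 3 and 14, 21 and 27 in vehicle libraries 1 to 3. Its order was another: inotodiol 3 was the highest and inotodiol 1, with an interval of 2.81 to 14.4 counts, the lowest. The log2 fold change of 0.11 ± 0.67 was the least precise of the 10 (95% interval -1.33 to 1.55), and the interval reached past 2-fold in each direction. It was -0.36 without inotodiol 3 and -0.095 without vehicle 1.

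Cry1, a cryptochrome and strong repressor of ARNTL and CLOCK (chromosome 10, 85131700 to 85185064, minus strand), had 13.9, 12.8 and 10.7 CPM in inotodiol libraries 1 to 3, against 24.5, 15.8 and 6.29 CPM in vehicle libraries 1 to 3. The highest and the lowest library were both vehicle mice, 3.90-fold apart, and the inotodiol mice lay between them. Means were 12.4 ± 1.64 CPM with inotodiol and 15.5 ± 9.13 CPM with vehicle (SD, n = 3 each). The log2 fold change was -0.32 ± 0.37; without vehicle 1 it was 0.18 and without vehicle 3 it was -0.70. Per1 and Cry1 both carry the E-box letters CACGTG in a start window, and vehicle 1 was the lowest library for Per1 and the highest for Cry1. The difference of their log2 CPM, Per1 minus Cry1, was 0.80, 0.29 and 0.67 in inotodiol libraries 1 to 3 and -2.10, 0.68 and 1.81 in vehicle libraries 1 to 3. Cry2, its relative, had 31.5, 23.1 and 21.1 CPM in inotodiol libraries 1 to 3, against 28.3, 22.4 and 22.4 CPM in vehicle libraries 1 to 3, with a log2 fold change of 0.05 ± 0.21.

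Nr1d1, which encodes REV-ERB alpha (chromosome 11, 98767932 to 98775333, minus strand), had 88.0, 85.4 and 103 CPM in inotodiol libraries 1 to 3, against 155, 93.8 and 79.2 CPM in vehicle libraries 1 to 3. Vehicle 1 lay above all other libraries, which were within 1.30-fold of one another. Its log2 fold change of -0.25 ± 0.21 (95% interval -0.70 to 0.21) became 0.09 ± 0.17 without vehicle 1. Nr1d1 shares 263 exonic bases with Thra, the thyroid hormone receptor alpha gene on the opposite strand. The strand setting of the counts is not given in the sources used here. Reads from the shared bases therefore cannot be assigned to either gene with certainty, and how many reads came from them is not known. Thra itself had 34.3, 35.6 and 34.3 CPM in inotodiol libraries 1 to 3 and 35.1, 46.1 and 31.4 CPM in vehicle libraries 1 to 3, and was not high in vehicle 1. Nr1d2, which encodes REV-ERB beta (chromosome 14, 18204054 to 18239127, minus strand), had 104, 112 and 122 CPM in inotodiol libraries 1 to 3, against 146, 104 and 110 CPM in vehicle libraries 1 to 3. As with Nr1d1, vehicle 1 was first and inotodiol 3 second. Its log2 fold change was -0.09 ± 0.16 (95% interval -0.43 to 0.25), and 0.07 without vehicle 1.

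Dbp, an output factor whose transcript swings widely over the day (chromosome 7, 45705088 to 45710203, plus strand), had 11.7, 7.66 and 12.0 CPM in inotodiol libraries 1 to 3, against 7.37, 12.3 and 18.4 CPM in vehicle libraries 1 to 3. Vehicle mice were again both the highest and the lowest, 2.49-fold apart. Means were 10.4 ± 2.43 CPM with inotodiol and 12.7 ± 5.51 CPM with vehicle (SD, n = 3 each), a log2 fold change of -0.28 ± 0.33 (95% interval -0.997 to 0.44). Without vehicle 3 it was 0.09. Vehicle 3, the highest library for Dbp, was also the highest in the summed macrophage and matrix markers given with the other markers, and their part in its Dbp level was not tested. Dbp shares 539 exonic bases with Sphk2, sphingosine kinase 2, on the opposite strand. Sphk2 had 38.7, 29.9 and 34.9 CPM in inotodiol libraries 1 to 3 and 35.5, 28.5 and 44.7 CPM in vehicle libraries 1 to 3. It was highest in vehicle 3 like Dbp. Without a known strand setting, reads from the shared bases cannot be assigned to either gene with certainty. Tef, the PAR bZIP relative of Dbp (chromosome 15, 81802421 to 81826863, plus strand), had the most reads of the 10, with 225, 196 and 259 CPM in inotodiol libraries 1 to 3 and 244, 186 and 192 CPM in vehicle libraries 1 to 3. From the lowest library to the highest it spanned 1.39-fold, close to the 1.41-fold of Nr1d2, and its log2 fold change was 0.13 ± 0.15 (95% interval -0.19 to 0.45). It was 0.02 without inotodiol 3 and 0.26 without vehicle 1.

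**Figure D2:**
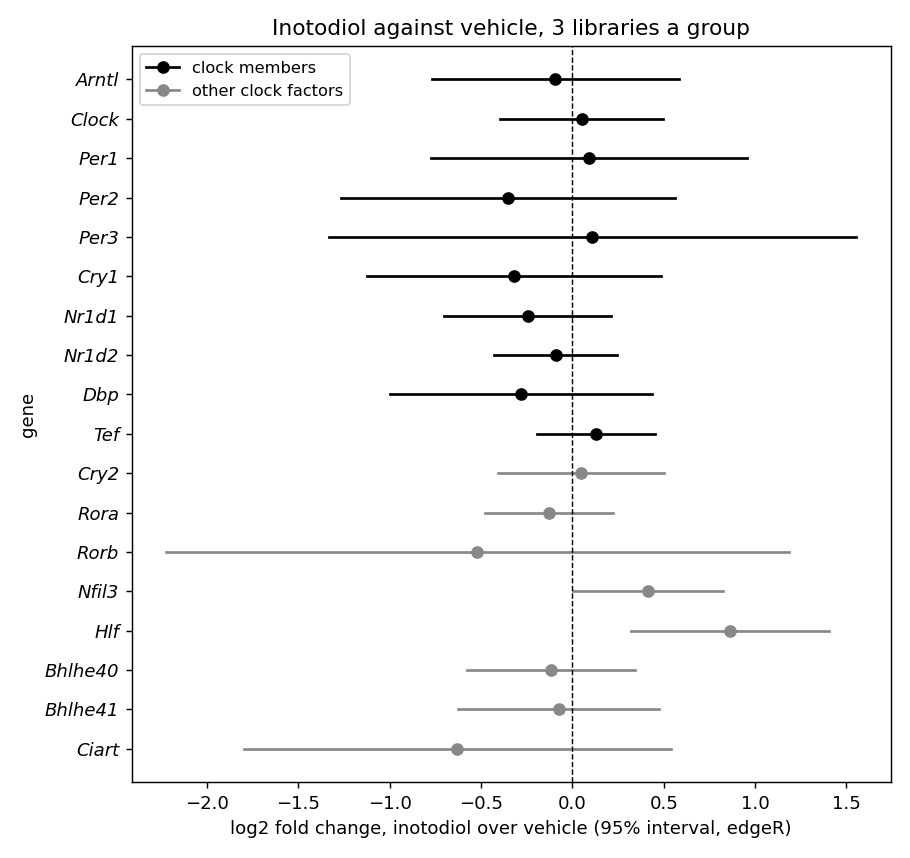
Log2 fold change of inotodiol over vehicle with its 95% interval (edgeR, 3 libraries a group) for the 10 clock members in black and other clock factors in grey. Every black interval crosses 0, and Hlf at 0.86 and Nfil3 at 0.41 are the genes drawn whose interval does not, although neither passed the adjusted threshold.

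Among the other clock transcription factors and repressors, 9 of 11 were tested and 0 were called in either direction, with 3 above 0, 6 below 0 and a median log2 fold change of -0.12. The smallest p belonged to Hlf, the third PAR bZIP gene beside Dbp and Tef. It had 17.6, 14.3 and 17.9 CPM in inotodiol libraries 1 to 3, against 7.37, 10.6 and 9.43 CPM in vehicle libraries 1 to 3. All inotodiol mice lay above all vehicle mice, as was the case for 5.15% of all genes in that direction. The means were 16.6 ± 2.00 CPM with inotodiol and 9.13 ± 1.62 CPM with vehicle (SD, n = 3 each). The log2 fold change of 0.86 ± 0.25 (95% interval 0.32 to 1.40) did not pass the test over all genes (edgeR, adjusted p 0.69). Over all alternatives it ranged from 0.73 to 0.99, with the smallest adjusted p, 0.33, in edgeR without a low-count filter. Adjusted p was 0.51 with DESeq2, 0.91 with limma-voom and 0.97 with edgeR's robust option. Hepatocyte markers lay in the same direction, with a summed level of 678, 285 and 116 unscaled CPM in inotodiol libraries 1 to 3, against 41.8, 98.7 and 68.1 for vehicle 1 to 3. Their part in Hlf was not tested. Without inotodiol 1, the library with most of them, Hlf was at 0.82. Nfil3, the repressor that competes for the same D-boxes, had 67.1, 83.9 and 88.8 CPM in inotodiol libraries 1 to 3, against 51.3, 77.8 and 50.9 CPM in vehicle libraries 1 to 3. The groups overlapped, and the log2 fold change of 0.41 ± 0.19 was not called (edgeR, adjusted p 0.96). The value for Ciart, a repressor of ARNTL and CLOCK, was -0.63 ± 0.54, at 1.79 to 4.75 CPM. Arntl2, an activator close to Arntl, had 0 counts in all inotodiol libraries and 0, 4 and 7 in the vehicle libraries, and was not tested.

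Genes that act on the clock proteins gave no call either. Of 14 kinases, ubiquitin ligases and partners 13 were tested, 7 above 0 and 6 below, with a median of 0.0040. Nono, a binding partner of the PER proteins, had a log2 fold change of -0.36 ± 0.18, the ligase gene Btrc of 0.36 ± 0.19 and the kinase gene Gsk3b of 0.19 ± 0.14. The inotodiol mice lay below all vehicle mice for Nono and for the kinase gene Csnk1d (-0.20 ± 0.15), and above them for Btrc, which 5.26% and 5.15% of all genes tested did. Usp2, a deubiquitinase gene under clock control, had 270 to 296 CPM with inotodiol, against 197 CPM in vehicle 1, the lowest library, and 297 and 301 CPM in the other vehicle mice.

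The muscle outputs of the clock were all tested, 12 of 12, with 0 called, 7 above 0 and a median of 0.025. Pdk4, the pyruvate dehydrogenase kinase that spares glucose, had 67.7, 111 and 81.1 CPM in inotodiol libraries 1 to 3, against 133, 148 and 226 CPM in vehicle libraries 1 to 3. Its inotodiol mice lay below all vehicle mice, as was the case for 5.26% of all genes, and its log2 fold change was -0.96 ± 0.21 (edgeR, adjusted p 0.58). It passed where no low-count filter was applied (edgeR, adjusted p 9.2e-05), a run that called 95 of 16491 genes. It did not pass with DESeq2 (adjusted p 0.054), limma-voom (0.91) or edgeR's robust option (0.97). The order of the vehicle mice for Pdk4, lowest in vehicle 1 and highest in vehicle 3, was that of Dbp, while the inotodiol mice followed another order than for Dbp. Ucp3, an uncoupling protein gene of fat-burning muscle, stood at 0.42 ± 0.29, the titin cap gene Tcap at 0.18 ± 0.12 and Myod1, a myogenic factor under direct control of the clock in mouse muscle, at 0.42 ± 0.33. Ucp3 was at 0.05 without inotodiol 3 and 0.82 without vehicle 3, and Myod1 at 0.18 without inotodiol 2. Slc2a4, the insulin-responsive glucose transporter gene, and Hk2, hexokinase 2, both linked to Arntl in mouse muscle, had log2 fold changes of 0.09 ± 0.13 and 0.04 ± 0.14.

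**Figure D3:**
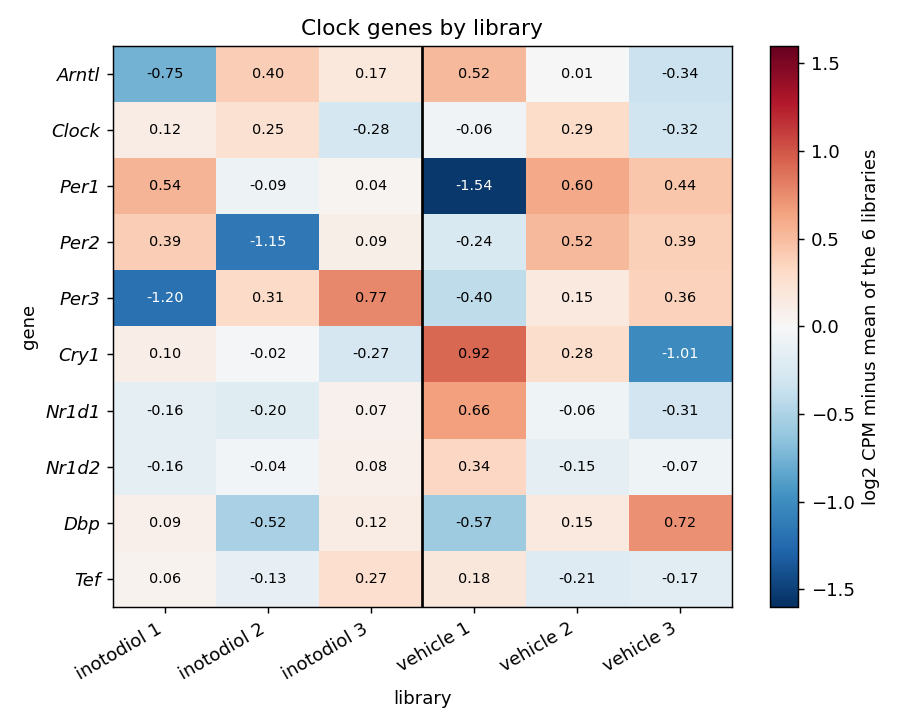
Deviation of log2 CPM from the mean of the 6 libraries for each clock gene, inotodiol libraries left of the line and vehicle libraries right of it; red is above the mean and blue below. Vehicle 1 combines low Per1 (-1.54) and Dbp (-0.57) with high Cry1 (0.92), Nr1d1 (0.66) and Arntl (0.52). Vehicle 3 has high Dbp (0.72) with low Cry1 (-1.01), Arntl (-0.34) and Nr1d1 (-0.31).

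Read by library, the clock genes set mice of the same group apart. Vehicle 1 was the highest library for 4 of the 10 members, Arntl, Cry1, Nr1d1 and Nr1d2, and the lowest for Per1 and Dbp. Over all genes tested it was the highest library for 17.6% and the lowest for 17.7%. Vehicle 3 was the highest for Dbp and the lowest for Clock, Cry1 and Nr1d1, beside 15.8% and 15.3% of all genes tested. Inotodiol 1 was the lowest for Arntl, Per3 and Nr1d2, beside 17% of all genes tested. The log2 CPM of Dbp minus that of Arntl was 0.44, -1.31 and -0.44 in inotodiol libraries 1 to 3 and -1.49, -0.25 and 0.67 in vehicle libraries 1 to 3. Its differences between libraries can be read, but not which gene was more abundant, since it was not settled whether counts rise with transcript length. By Dbp minus Arntl each group held mice toward both ends. Nr1d1 and Nr1d2, whose products silence Arntl, did not follow Dbp in vehicle 1 and vehicle 3. Against their means they lay at 0.66 and 0.34 in vehicle 1, the library with the highest Arntl. In vehicle 3 they lay at -0.31 and -0.065. In inotodiol 2 they lay at -0.20 and -0.045, below their means like Dbp. Vehicle 1 and inotodiol 2 had the lowest Dbp with the highest Arntl, and vehicle 3 had the highest Dbp with Arntl below its mean. Inotodiol 1 had the lowest Arntl, but it was not at the end for Dbp. Its Dbp lay 0.086 above the mean, less than the SD of 0.137 that counting error alone would give. Leaving inotodiol 1 aside, the order of the other 5 libraries by Dbp CPM was the reverse of their order by Arntl. It ran from vehicle 3 through vehicle 2, inotodiol 3 and inotodiol 2 to vehicle 1. Vehicle 2 and inotodiol 3 had 114 and 117 Dbp counts, and inotodiol 2 and vehicle 1 had 69 and 70. The order within each of these pairs is within counting error, and raw counts gave the other order. The order of the 5 was noticed in the values, with inotodiol 1 set aside, and was not tested.

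**Figure D4:**
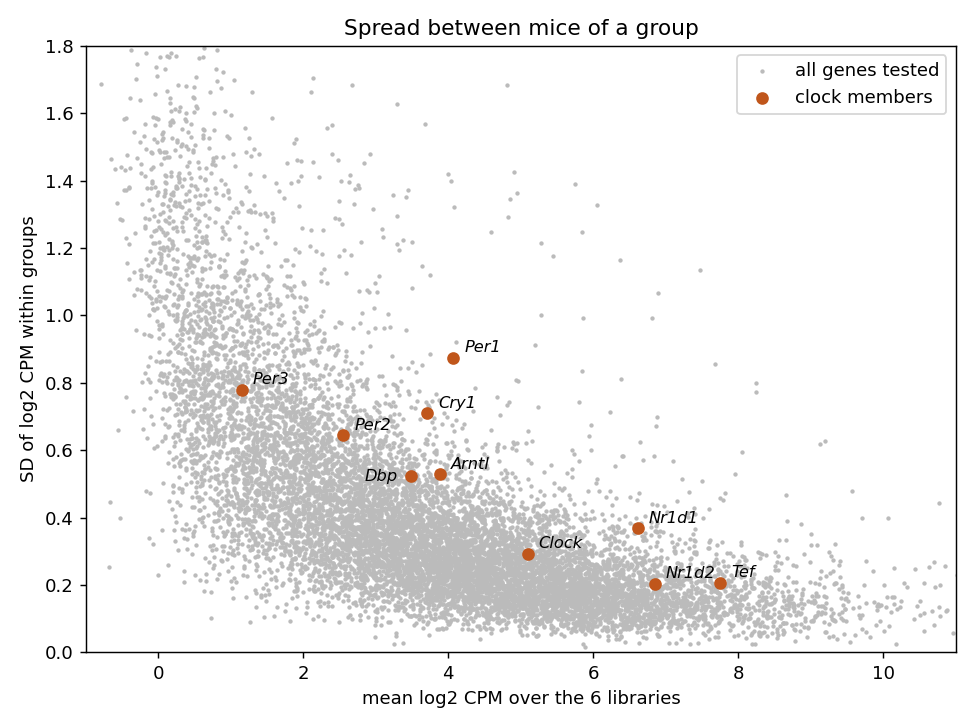
Within-group SD of log2 CPM (vertical axis) against mean log2 CPM over the 6 libraries (horizontal axis) for all genes tested in grey and the 10 clock members in orange; 74 genes lie outside the axes. Per1 (SD 0.875), Cry1 (0.709) and Nr1d1 (0.369) lie near the upper edge of genes at their level, and Tef and Nr1d2 lie within the bulk.

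How far mice of a group differed was set beside all genes, since spread depends on the level of a gene. The within-group SD of log2 CPM had a median of 0.526 over the members and 0.320 over all genes tested, and 7 of 10 members were above the median of all genes tested. Set against genes whose mean log2 CPM lay within 0.5 of their own, all 10 members had an SD above the median of those genes. For Per1 the SD was 0.875, and 9 of 1938 genes of like level (0.464%) had a larger one. For Cry1 it was 0.709, with 49 of 1978 (2.48%) larger, and for Nr1d1 0.369, with 46 of 919 (5.01%) larger. Arntl (0.529, 6.47% larger) and Dbp (0.523, 12.5% larger) followed, and at the other end stood Nr1d2 (0.204, 34.0% larger) and Per3 (0.780, 36.3% larger). Counting error alone would give an SD of about 0.109 for Per1 and 0.314 for Per3. Single mice carried much of this. Without vehicle 1, 8 of 10 members were above the median of like genes, the SD of Per1 was 0.280 with 47.3% of like genes larger, and that of Nr1d1 was 0.154 with 56.1% larger. Without vehicle 3 the SD of Cry1 was 0.302 with 51.4% larger. With any library other than vehicle 1 left out, 9 or 10 members were above that median. These are descriptions of 6 mice, without a test.

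Glucocorticoids follow a daily rhythm of their own and act on Per1, so their responsive genes were read beside it. All 9 were tested, 0 were called, 5 lay above 0 and their median was 0.034 on the log2 scale. Vehicle 1 was the lowest library for 7 of the 9, Tsc22d3, Zbtb16, Klf9, Sgk1, Ddit4, Mt1 and Mt2, and for 17.7% of all genes tested. Zbtb16, a glucocorticoid-induced zinc finger gene, had 158, 129 and 151 CPM in inotodiol libraries 1 to 3, against 73.2, 136 and 124 CPM in vehicle libraries 1 to 3. Sgk1, a kinase gene induced by the same hormones, had 125, 99.5 and 146 CPM in inotodiol libraries 1 to 3 and 67.8, 102 and 111 CPM in vehicle libraries 1 to 3. Their log2 fold changes were 0.40 ± 0.20 and 0.40 ± 0.19, both with adjusted p 0.96 in edgeR, and 0.26 ± 0.15 for Tsc22d3 and -0.26 ± 0.19 for Klf15. The list median was -0.21 without vehicle 1 and 0.49 without vehicle 3. Fkbp5, the usual marker of glucocorticoid action, had 73.8 to 97.1 CPM with inotodiol, against 93.3 CPM in vehicle 1, where it was not low, and 92.5 and 97.8 CPM in the other vehicle mice. Klf15 was not low in vehicle 1 either, at 46.8 CPM. It had 29.8, 32.1 and 47.1 CPM in inotodiol libraries 1 to 3 and 41.8 and 42.4 CPM in vehicle 2 and 3. Whether glucocorticoids had a part in the level of Per1 was not tested.

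The genes most like Dbp and Arntl over the 6 libraries were found among 8438 other genes averaging 5 CPM or more, by Pearson correlation of log2 CPM. For Dbp these were Rpn2 (r = 0.996, Spearman rho = 0.77), Prelp (0.985, 0.83), Angptl7 (0.983, 1.00), Papss2 (0.973, 0.94) and Col5a1 (0.969, 0.77). Prelp and Col5a1 encode matrix proteins, and the fibroblast and matrix markers were, like Dbp, highest in vehicle 3. For Arntl they were Eif4g2 (r = 0.990, rho = 1.00), Atl2 (0.985, 0.94), Atg3 (0.985, 1.00), Atxn7l3b (0.984, 1.00) and Cux1 (0.982, 1.00). With 6 libraries many genes reach such values: 46 of the 8438 had r of at least 0.9 with Dbp and 90 with Arntl. The values are maxima of a search and are given without a test.

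The libraries held 8961893 to 9953764 counts. The skeletal muscle markers, among them Acta1, Ckm and Myh4, together took 145800 to 152200 unscaled CPM in inotodiol and 148200 to 160300 in vehicle libraries, with none of the 10 at 0. Of 17 hepatocyte markers 14 were tested and 0 called. All 14 had log2 fold changes above 0, with a median of 2.86, 13 had an unadjusted p under 0.05 (4.87% of all genes) and for 7 the inotodiol libraries lay above all vehicle libraries (5.15% of all genes). Exocrine pancreas markers (0 of 11 tested) took 110 unscaled CPM in inotodiol 1 and 0.618 to 2.71 elsewhere. Of the hepatocyte markers 3 were at 0 in vehicle 1 and 1 in vehicle 2. Of the pancreas markers 8 and 9 were at 0 in the other inotodiol libraries, and 2 to 8 were at 0 in the vehicle libraries. Inotodiol 1, lowest in Arntl, Per3 and Nr1d2, was thus the highest in both lists, and their part in its clock values was not tested. Without inotodiol 1 the log2 fold change of Per1 was -0.12 ± 0.45, and 0 members were called. Vehicle 3, highest in Dbp and lowest in Clock, Cry1 and Nr1d1, had the highest summed levels of macrophage markers (67.6 to 219 in the inotodiol libraries, against 344 in vehicle 3 and 116 and 151 in the other vehicle libraries) and of fibroblast and matrix markers (1073 to 1395 in the inotodiol libraries, against 2419 in vehicle 3 and 1278 and 1357 in the other vehicle libraries), with no marker at 0. Their part in its clock values was not tested. In vehicle 1 none of the marker lists of other cells was at its highest except the endothelial list (127 to 147 in the inotodiol libraries, against 154 in vehicle 1 and 126 and 130 in the other vehicle libraries). Schwann cell markers took 94.9 to 201 in the inotodiol and 73.2 to 105 in the vehicle libraries, white fat markers 411 to 716 and 439 to 675, and erythroid markers 4375 to 13980 and 5611 to 7966.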

How the data were processed

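RNA of 6 gastrocnemius muscles was sequenced, 3 per treatment, which the labels call biological replicates. Libraries were made with a Lexogen Quant-Seq kit, per the labels' protocols. The authors deposited raw read counts per gene symbol, and per the submitters' processing notes Bowtie2, bedtools and the mm10 build were used; versions, annotation, strand setting and multi-mapped reads: not given in the sources. Whether counts rise with transcript length was not settled, so levels are compared between libraries and not between genes.

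Genes were kept with filterByExpr (minimum count 10, minimum total 15), normalised by TMM and compared in edgeR 4.0.16, run in R 4.3.3, by the two-sided quasi-likelihood test on group alone, adjusted over all 11700 genes by Benjamini-Hochberg at 0.05. CPM are TMM-scaled unless called unscaled; log2 CPM used a prior count of 2. The common biological coefficient of variation was 27.2%. P-values set the difference between groups against the spread among 3 mice a group, an estimate for which edgeR also draws on other genes. Alternatives were other scalings, filters, DESeq2 1.42.0, limma-voom (3.58.1), edgeR's robust option, a replicate block, a threshold of 0.10, removal of Rn45s and each library left out; the comparison of spread with each library left out was added after seeing the data. Coordinates are GENCODE M21 gene spans on GRCm38, the assembly of mm10; start regions are from RefSeq.

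The members and gene lists were chosen with earlier results of these data known. Named were all members, up to 4 genes per list with the smallest p (some are not reported here), the 5 genes most like Dbp and Arntl, and, after their values were seen, Npas2, Arntl2, Cry2, Usp2, Csnk1d, Fkbp5, Slc2a4, Hk2 and the overlapping genes. No gene set test was run.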

Additional observations from a re-analysis of the deposited data

How the results depend on the processing

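None of the 10 clock members was called under any of the 17 alternatives, leave-one-out runs included. Without vehicle 3, 1 member had an unadjusted p under 0.05 in edgeR, as did 532 of the 12047 genes tested there. Over the 17 alternatives 153 values of the members' log2 fold changes kept their sign and 16 did not. The threshold of 0.10 reused the main fit, so its values could not change sign. With edgeR's robust option the members' log2 fold changes were also those of the main fit. With library totals alone, which moved the median of all genes to -0.12, Clock was at -0.070 and Per1 at -0.021, and with limma-voom Per3 was at -0.096. Replicate numbers showed no clear pairing of the libraries, though so few pairs cannot exclude one. Of the same-numbered pairs, 1 of 3 correlated above 0.1 in their deviations from the group means. Of the libraries, 2 of 6 correlated best with their own number. With the replicate block 0 genes were called and Per3 was at -0.059. With a library left out, Arntl ranged from -0.33 to 0.18, Clock from -0.085 to 0.24, Per1 from -0.33 to 0.44, Per2 from -0.67 to -0.0080, Per3 from -0.36 to 0.52, Cry1 from -0.70 to 0.18, Nr1d1 from -0.43 to 0.091, Nr1d2 from -0.18 to 0.074, Dbp from -0.55 to 0.089 and Tef from 0.021 to 0.26. Of the other genes named Ucp3 ranged from 0.053 to 0.82, Myod1 from 0.18 to 0.54, Ciart from -0.94 to -0.34, Nfil3 from 0.31 to 0.65, Gsk3b from 0.10 to 0.31, Tsc22d3 from 0.085 to 0.37, Zbtb16 from 0.17 to 0.58 and Sgk1 from 0.22 to 0.54. Over all genes 95 were called with no filter on low counts, 1 with DESeq2, and 0 to 25 with a library left out, 25 without inotodiol 3; of the other clock and output lists 1 gene, Pdk4, was called with no filter. With library totals alone 138 of the 726 genes at an unadjusted p under 0.05 were higher with inotodiol, against 312 of 570. The median SD of the members over the libraries, 0.480, ranged from 0.375 to 0.533 with a library left out. Per3 was not tested at 1 CPM in all 6 samples. The cause of these changes was not tested. Per3 had 7 to 35 counts a library and Per2 22 to 76; counting error alone would give an SD of 0.314 and 0.190 on the log2 scale, beside within-group SDs of 0.780 and 0.645.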
